A study of Homo sapiens with 4 samples.

Results

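BAF45D regions that were called in both libraries of spinal cord neural stem cells (NSC1 and NSC2) and in the second embryonic stem cell library (ESC2), but not in the first (ESC1), numbered 2659. They were chosen by the presence of peaks alone. Peaks of the 4 libraries on chromosomes 1 to 22 and X were merged wherever they overlapped by 1 bp or more, which gave 44534 regions, so these 3-library regions made up 5.97% of all regions. They are set beside 1458 regions with a peak in all 4 libraries (4-library regions) and 13646 regions with a peak in NSC1 and NSC2 and none in ESC1 or ESC2 (NSC-only regions). The pattern in which ESC1 and ESC2 trade places, with peaks of NSC1, NSC2 and ESC1 and none of ESC2, was found in 30 regions.

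The ESC samples were H9 cells, an established human embryonic stem cell line, kept on Matrigel in mTeSR1 medium. The NSC samples were H9 cells taken through 10 days of neural induction in N2B27 medium with LDN-193189, SB431542, CHIR-99021, FGF2, FGF8 and DAPT. They were then kept in medium with SB431542, CHIR-99021 and Hh-Ag 1.5, and finally in FGF2 and EGF, with Y-27632 at passages. All 4 libraries came from CUT&Tag on 100000 cells with a rabbit antibody against BAF45D. One line and 1 differentiation protocol are represented, and the labels do not say whether libraries 1 and 2 of a cell type were separate cultures, so the spread between them may be technical.

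BAF45D, the product of DPF2, is a subunit of the BAF complex, which uses ATP to move nucleosomes and so opens DNA at promoters and enhancers. In CUT&Tag the antibody brings a transposase to the DNA beside the bound protein, and the transposase also has some tendency to cut open chromatin without guidance. Promoters of broadly expressed genes are mostly rich in CpG and open in many cell types, whereas promoters of lineage genes are open in fewer.

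The libraries were uneven. ESC1 had 20734829 tags and 4204 peaks, and ESC2 had 18953543 tags and 12533 peaks. NSC1 had 5566407 tags and 29783 peaks, and NSC2 had 5377831 tags and 24669 peaks. Every comparison below therefore sets 1 short list against 3 longer ones. Strength is given as the −log10 q of the strongest peak in a region, which the authors' peak caller computed within 1 library, and as the percentile of that value in the library's own list, where 100 is the strongest. An exact two-sided permutation test of 2 libraries against 2 cannot go below p = 0.333, so shares are given with 95% Wilson intervals, which cover counting error only. Regions, genes and promoters are not replicates.

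Promoter sequence is shown here for 8 genes whose start lay under strong 3-library regions, because most of these regions sat just upstream of gene starts. Each line gives the 150 bases before the RefSeq start of the gene on GRCh38.p14, 5′ to 3′ on the gene's strand. All 150 bases lay inside the region in each case. Capitals mark matches on either strand to 10 short promoter motifs that were searched for, named after the factors or boxes they are known for. PDCL3 (chr2:100562843-100562992, plus strand) was the second strongest region at a gene end and held an NRF1 motif and a pair of GC boxes. TOM1L2 (chr17:17972401-17972550, minus strand) and DRC3 (chr17:17972663-17972812, plus strand) face away from each other within 1 region, and each held a pair of NF-Y motifs. NOP14 (chr4:2963407-2963556, minus strand) held a pair of CG palindromes, a sequence that the protein BANP is known to bind.
PDCL3: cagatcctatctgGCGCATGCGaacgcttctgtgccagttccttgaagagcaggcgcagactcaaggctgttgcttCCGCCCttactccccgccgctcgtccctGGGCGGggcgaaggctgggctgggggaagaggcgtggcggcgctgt
TOM1L2: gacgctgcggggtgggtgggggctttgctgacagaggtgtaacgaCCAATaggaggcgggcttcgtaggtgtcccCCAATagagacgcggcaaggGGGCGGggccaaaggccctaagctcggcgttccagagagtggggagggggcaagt
DRC3: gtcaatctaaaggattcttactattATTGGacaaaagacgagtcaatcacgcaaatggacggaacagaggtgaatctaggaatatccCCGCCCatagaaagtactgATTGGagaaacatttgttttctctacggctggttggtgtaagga
NOP14: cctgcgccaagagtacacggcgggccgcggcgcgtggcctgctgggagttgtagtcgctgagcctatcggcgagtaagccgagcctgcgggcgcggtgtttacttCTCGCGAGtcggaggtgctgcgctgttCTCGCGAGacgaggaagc

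The other 4 stand for gene groups described further on: RPL18 for ribosomal proteins (chr19:48619179-48619328, minus strand), EEF1A1 for translation factors (chr6:73521033-73521182, minus strand), SRSF10 for splicing factors (chr1:23980328-23980477, minus strand) and H2AC25 for histones (chr1:228457874-228458023, minus strand). RPL18 held a CRE, the site of cAMP-responsive factors, and a GC box. SRSF10 held an NRF1 motif and a CG palindrome. H2AC25 held a pair of NF-Y motifs, and no letters of EEF1A1 matched.
RPL18: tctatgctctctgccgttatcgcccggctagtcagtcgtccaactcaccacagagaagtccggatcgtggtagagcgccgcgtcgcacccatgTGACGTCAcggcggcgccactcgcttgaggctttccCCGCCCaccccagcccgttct
EEF1A1: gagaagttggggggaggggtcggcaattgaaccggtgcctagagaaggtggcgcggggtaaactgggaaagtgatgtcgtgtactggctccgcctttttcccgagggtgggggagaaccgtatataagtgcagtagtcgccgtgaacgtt
SRSF10: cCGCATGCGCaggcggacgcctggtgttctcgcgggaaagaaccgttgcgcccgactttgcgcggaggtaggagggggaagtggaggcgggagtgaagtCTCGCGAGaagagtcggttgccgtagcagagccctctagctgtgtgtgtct
H2AC25: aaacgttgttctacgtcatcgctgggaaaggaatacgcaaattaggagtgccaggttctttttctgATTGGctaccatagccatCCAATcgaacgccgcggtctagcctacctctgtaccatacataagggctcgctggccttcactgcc

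The 3-library regions lay mainly at the ends of protein-coding genes. A region counted as at a gene end when it came within 1 kb of either end of a coding gene, which was the case for 1918 of 2659 regions (72.1%, 95% Wilson interval 70.4 to 73.8). A further 418 (15.7%) lay inside a coding gene away from its ends, and 323 (12.1%) lay outside coding genes. The gene-end share was 62.1% (59.6 to 64.5) in the 4-library regions, 21.8% (21.1 to 22.5) in the NSC-only regions and 22.5% (22.1 to 22.9) over all regions. The share outside coding genes was 23.4% (21.3 to 25.6) in the 4-library regions. Among sites with peaks of NSC1, NSC2 and ESC2, those without an ESC1 peak thus lay at gene ends more often than those with one. The comparison covers only sites with an ESC2 peak. The NSC-only regions lack both ESC1 and ESC2, and the position of the 30 regions with ESC1 and no ESC2 peak is not given. Whether the same holds at sites without an ESC2 peak was therefore not tested.

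**Figure D1:**
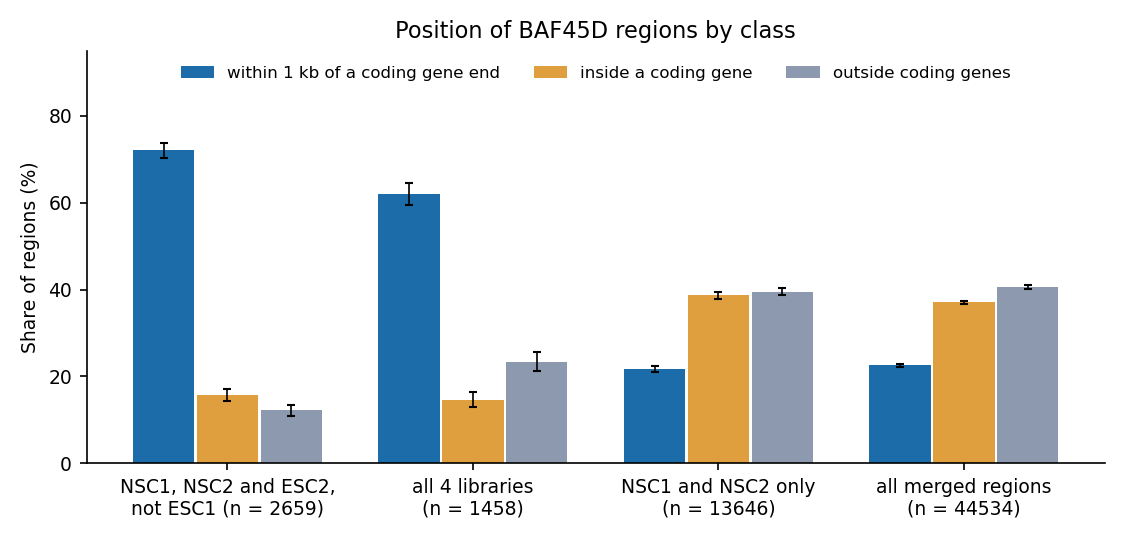
Share of regions (%) within 1 kb of a coding gene end, inside a coding gene and outside coding genes, for 4 sets of regions; bars are shares and lines are 95% Wilson intervals, counting error only. The bar for gene ends is highest in the 3-library regions (72.1%), lower in the 4-library regions (62.1%) and 21.8% in the NSC-only regions.

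Gene starts accounted for most of these gene ends. Strand was known for 15811 of 19970 coding genes. At these genes 1670 regions (62.8%, 61.0 to 64.6) lay within 1 kb of a 5′ end and 129 (4.85%) within 1 kb of a 3′ end. Of the 1918 gene-end regions, 1584 were at a 5′ end alone, 43 at a 3′ end alone and 86 at both, and 205 were at genes without a listed strand. The 5′ share was 53.6% in the 4-library regions and 17.4% in the NSC-only regions.

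The regions were compact and aligned between libraries. Their median width was 626 bp, with quartiles of 477 and 806 bp and a range of 209 to 1861 bp, and together they covered 1.75 Mb. In 2409 of them each of the 3 libraries had exactly 1 peak. In 2583 (97.1%) the ESC2 peak itself overlapped an NSC1 peak and an NSC2 peak, so few regions were chains held together by a peak between them.

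Summits of different libraries lay close together. The strongest NSC1 and NSC2 summits were a median of 39 bp apart, with 75.6% within 100 bp. The ESC2 summit was a median of 55 bp from that of NSC1 and 56 bp from that of NSC2. In the 4-library regions the same 3 medians were 31, 40 and 40 bp. Offsets were measured from the start used by the RefSeq promoter table, which can lie inside the gene's outermost 5′ end, so that 1721 regions were within 1 kb of such a start, not the 1670 counted at outermost 5′ ends. At these 1721 regions the median offset of the summit from the start, negative for upstream, was −111 bp in ESC2, −79 bp in NSC1 and −80 bp in NSC2. The summit was upstream in 80.1%, 77.0% and 76.8% of them.

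**Figure D2:**
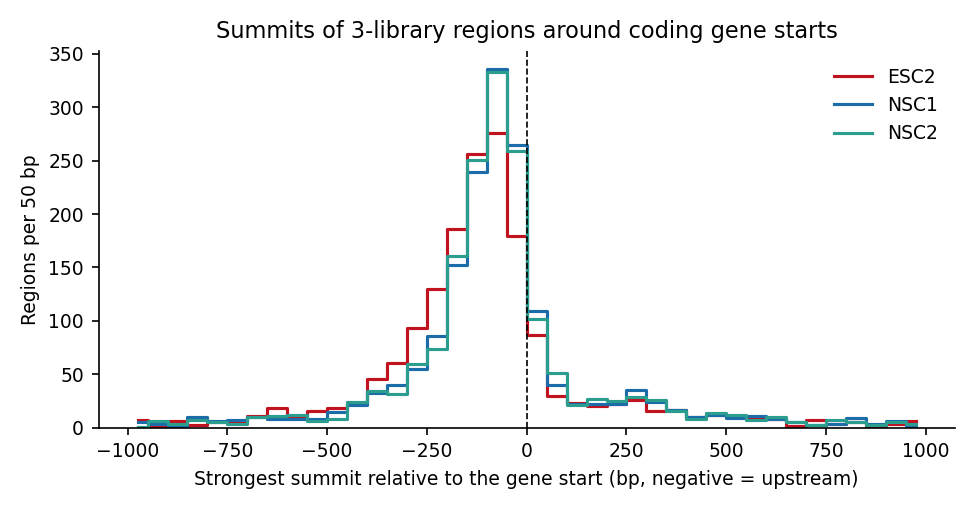
Number of 3-library regions per 50-bp bin (y axis) by the distance of the strongest summit from the gene start in bp (x axis, negative is upstream), for ESC2, NSC1 and NSC2 at 1721 regions. All 3 curves peak within 100 bp upstream of the start, and the ESC2 curve extends further upstream (median −111 bp) than those of NSC1 (−79 bp) and NSC2 (−80 bp).

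The ESC2 summits of the 4-library regions showed a larger offset, with a median of −149 bp in ESC2 and −146 bp in ESC1 against −110 and −122 bp in NSC1 and NSC2. In the NSC-only regions the medians were −52 and −55 bp, and 65.4% and 66.6% of summits were upstream. Genes on both strands started near 283 of the 1721 3-library regions at a start (16.4%), 162 of 810 4-library regions (20.0%) and 306 of 2437 NSC-only regions (12.6%).

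Within their own lists the peaks stood at higher percentiles in the NSC libraries than in ESC2. The lists differ in length, so this does not order the libraries by strength. The median −log10 q was 5.67 in ESC2 (percentile 64.2), 10.6 in NSC1 (79.4) and 8.63 in NSC2 (74.3). In the 4-library regions it was 17.1 in ESC2 (92.2), 17.6 in NSC1 (91.5) and 16.1 in NSC2 (91.1), and 5.86 in ESC1 (71.8). In the NSC-only regions it was 6.85 in NSC1 (62.7) and 5.79 in NSC2 (56.2). The 3-library regions thus stood between the other classes in both NSC lists. Strength decides whether a peak is called, so this order is tied to the way the regions were chosen. Across the 2659 regions, Spearman's rho of −log10 q was 0.70 between NSC1 and NSC2, 0.24 between ESC2 and NSC1 and 0.25 between ESC2 and NSC2. These values describe regions that share their libraries.

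Whether ESC1 had a peak moved with the strength of the ESC2 peak. Among all regions with peaks of NSC1, NSC2 and ESC2, ESC1 had a peak in 86.1% (83.9 to 88.1) where the ESC2 peak was in the top 10 percentiles of its list. The share was 39.8% (36.4 to 43.2) in percentiles 80 to 90, 21.6% in 70 to 80 and 13.6% in 60 to 70, and 1.65% in the lowest 10. Even so, 140 of the 3-library regions had an ESC2 peak in the top 10 percentiles. Of these 140, 77.9% (70.3 to 83.9) lay at gene ends, against 59.4% (56.1 to 62.6) of the 869 4-library regions in the same range. ESC2 strength was not matched within this range. The highest ESC2 −log10 q was 34.5 in the 3-library regions and 1406 in the 4-library regions. In percentiles 80 to 90 the shares were 77.2% (73.3 to 80.7) and 68.3% (63.0 to 73.2). In percentiles 70 to 80 they were 77.1% (73.1 to 80.6) and 69.2% (60.8 to 76.5), with intervals that overlapped, and lower bins held 64 or fewer 4-library regions. With every list cut to its strongest 4204 peaks, the length of the ESC1 list, 413 regions had the 3-library pattern. The count of the reverse pattern at this length is not given, and what list length contributes was not tested. The part that untargeted cutting of open chromatin plays in any library was not tested.

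**Figure D3:**
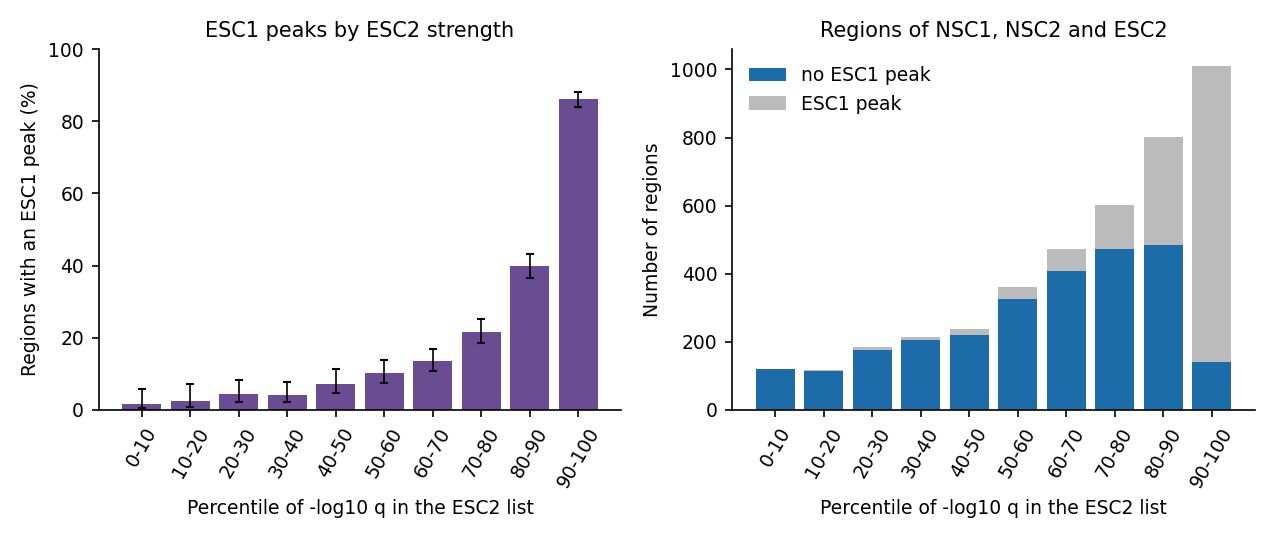
Left, share (%) of regions with peaks of NSC1, NSC2 and ESC2 that also had an ESC1 peak, by percentile of the ESC2 peak's −log10 q in its list, with 95% Wilson intervals; right, the numbers behind it. The share goes from 1.65% in the lowest bin to 86.1% in the highest, where 140 regions had no ESC1 peak.

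The gene-end share also stayed apart from that of the NSC-only regions at like NSC strength. With the mean percentile of the NSC lists between 90 and 100, 76.5% (72.6 to 80.0) of 507 3-library regions and 12.9% (11.1 to 15.1) of 1090 NSC-only regions were at gene ends. Between 50 and 60 the shares were 65.3% (59.5 to 70.7) and 23.9% (22.1 to 25.9). In the lowest 10 percentiles they were 16.7% and 16.3%, with only 12 regions of the first kind.

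The nearest ESC1 peak was a median of 180.5 kb away, against 315 kb for the NSC-only regions. It was within 1 kb in 36 regions (1.35%), within 10 kb in 132 (4.96%) and within 100 kb in 935 (35.2%). The NSC-only shares at these distances were lower, with 0.674%, 2.52% and 21.4%, so ESC1 peaks were seldom close but closer than to NSC-only regions. Just inside the rule, a region on chromosome 20 outside coding genes lay 67 bp from an ESC1 peak, with −log10 q of 6.46 in ESC2, 9.73 in NSC1 and 14.5 in NSC2. The next was at the end of CHCHD6, 115 bp from an ESC1 peak, with 15.8, 4.13 and 7.82. Just outside the rule, an ESC1 peak of 1.83 overlapped the region at CADM2 by 2 bp. The SRSF7 region, with 10.3 in ESC2, 9.81 in NSC1 and 13.4 in NSC2, was left out by an ESC1 overlap of 29 bp.

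The strongest gene-end regions lay at genes of several kinds. The first lay between MGME1, a nuclease of mitochondrial DNA maintenance, and SNX5, a sorting nexin of endosomes (chr20:17968504-17969569), with −log10 q of 21.995 in ESC2, 37.9 in NSC1 and 54.6 in NSC2. Its nearest ESC1 peak was 286 kb away. At PDCL3, a phosducin-like protein involved in protein folding, the values were 24.9 in ESC2, 34.5 in NSC1 and 32.5 in NSC2. At PPAT, which catalyses the first committed step of purine synthesis, they were 19.2, 46.8 and 37.7. NSC values exceeded the ESC2 value at each of these 3, but the scales belong to separate lists.

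The next regions had much the same profile. One lay between G3BP2, a stress granule protein, and USO1, a Golgi tethering factor, with 22.3 in ESC2, 33.8 in NSC1 and 32.9 in NSC2. MPC2, a subunit of the mitochondrial pyruvate carrier, had 21.7, 35.1 and 26.2. The region between DRC3, of the ciliary dynein regulatory complex, and TOM1L2, of endosomal sorting, had 19.0, 26.7 and 48.8. The NSC libraries differed most there among the first 6, NSC2 being above NSC1. CCDC9 had 16.7, 45.2 and 31.3, and the region of GRK4, a receptor kinase, and NOP14, a factor of ribosome assembly, had 21.9, 39.7 and 22.1.

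SETD5, a SET domain protein, had 16.2 in ESC2, 38.2 in NSC1 and 34.4 in NSC2, and its nearest ESC1 peak was 1476 kb away. The region of CENPT, a kinetochore protein, and NUTF2, which carries Ran into the nucleus, had 23.3, 23.4 and 29.9. MYH10, a non-muscle myosin heavy chain, had 24.4, 28.1 and 22.3. At EEF1A1, which delivers aminoacyl-tRNA to the ribosome, ESC2 gave the highest of its 3 values, with 26.8 against 24.2 in NSC1 and 23.3 in NSC2.

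**Figure D4:**
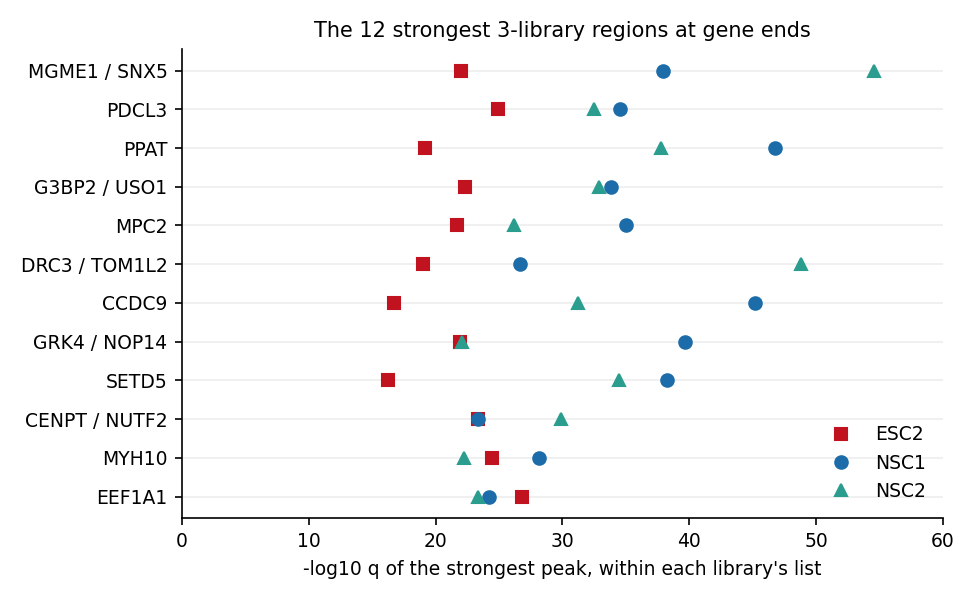
Strongest −log10 q in ESC2, NSC1 and NSC2 (x axis, computed within each library's list) for the 12 gene-end regions of highest mean percentile. MGME1 with SNX5 reaches 54.6 in NSC2, and EEF1A1 is the region where ESC2, at 26.8, is above both NSC values.

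By ESC2 strength alone the order was different. The highest ESC2 values were 34.5 at ITFG2, a subunit of a complex that restrains mTORC1, 31.5 at IMP3, which takes part in making the small ribosomal subunit, and 31.4 at CCDC32. They were followed by 30.7 at ASNSD1, which has the upstream reading frame ASDURF, and 29.4 at MON1B, a factor of endosome maturation. At ITFG2 the NSC1 and NSC2 values were 19.9 and 22.04, and at CCDC32 they were 11.6 and 15.4. No ESC1 peak was called within 100 kb of these 5, although they stood at percentiles 96.9 to 97.7 of the ESC2 list.

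The opposite case, chosen after the values were seen, was the strongest NSC signal. At ZBTB2, a zinc finger repressor, −log10 q was 99.1 in NSC1 and 72.4 in NSC2 but 2.40 in ESC2 (percentile 20.3). DOCK4, a Rac activator, had a region inside the gene with 62.6 and 59.3 in NSC and 4.56 in ESC2. ZSWIM6 had one with 67.7 and 52.4 in NSC and 5.67 in ESC2. A region inside MRPS28, of the mitochondrial ribosome, had 65.6 and 64.3 in NSC and 1.34 in ESC2. The fifth, at RRM2B, a subunit of ribonucleotide reductase, had 59.2 in both NSC libraries and 13.3 in ESC2. The ESC2 percentiles of these 5 ran from 0.666 at MRPS28 to 88.0 at RRM2B, so a strong NSC peak went with ESC2 peaks of very different rank.

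Inside genes, away from their ends, the strongest region was in BANP, which encodes a protein that binds the CG palindrome (chr16:87950831-87951623). Its −log10 q was 22.7 in ESC2, 35.3 in NSC1 and 28.9 in NSC2, and it lay 1.99 kb from the gene's end. C6orf89 followed with 18.4, 30.0 and 28.1, and then RPS6KA2, a kinase below ERK, with 12.5, 37.0 and 27.2. The others of the first 6 were in MATN1, a cartilage matrix protein, where the region lay at an end of the antisense RNA MATN1-AS1, in IGFLR1 and in UVSSA, a factor of transcription-coupled repair.

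Outside coding genes, the strongest region lay at an end of the pseudogene FAM86C2P (chr11:67805293-67806217), with 15.7 in ESC2, 48.8 in NSC1 and 37.9 in NSC2. The second lay at the ends of the pseudogenes PMS2P7 and STAG3L3, with 14.4, 22.05 and 18.3. Both belong to duplicated families, in which a read may fit several copies. Another lay at an end of the long noncoding RNA DLEU1, with 19.7, 12.5 and 25.5. Those nearest to MRPL48, CTR9 and LOC105375116 were 7.95, 15.2 and 23.6 kb from these genes, and the last was at the ends of the long noncoding RNAs LINC03014 and LINC03015. Inside or outside, medians were lower than at gene ends, with −log10 q of 4.76 and 5.10 in ESC2, 8.88 and 8.72 in NSC1 and 7.59 and 7.25 in NSC2, against 6.08, 11.2 and 8.98.

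Counted by gene, 2375 of 19970 coding genes (11.9%) had a 3-library region within 1 kb of an end. The 4-library regions reached 1161 coding genes (5.81%) and the NSC-only regions 3424 (17.1%). One coding gene lay at 1444 of the gene-end regions, 2 at 454 and 3 or more at 20. Of the 2375 genes, 33 also had a 4-library region and 142 an NSC-only region at an end. The gene lists below are set against the 11.9% of all coding genes. They count gene ends, not expression, and no list was tested.

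**Figure D5:**
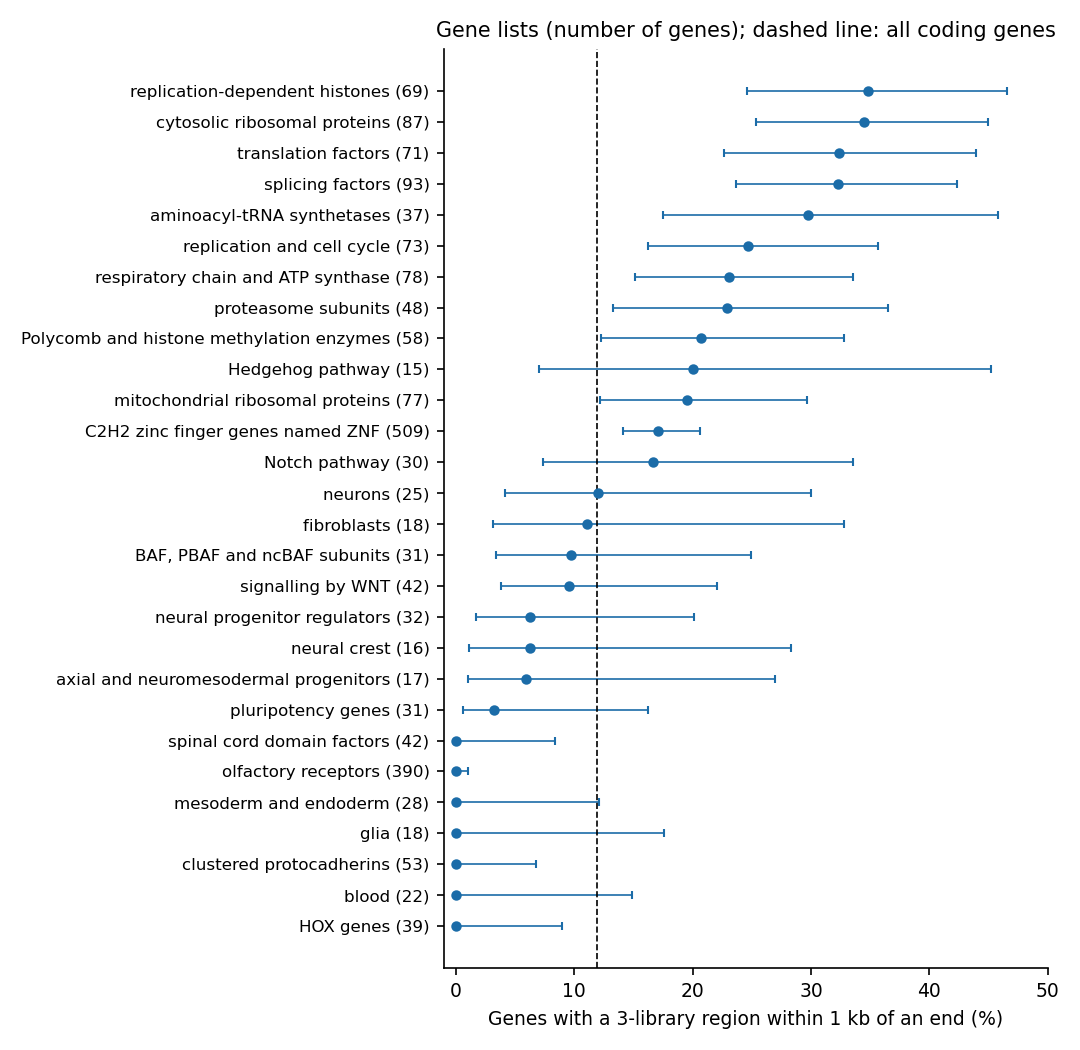
Percent of the genes of each of 28 lists (number of genes in brackets) with a 3-library region within 1 kb of an end; points are shares and lines are 95% Wilson intervals, counting error only. The dashed line is the 11.9% of all coding genes; histone, ribosomal protein, translation and splicing lists lie above 30%, and 7 lists are at 0.

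Genes of protein synthesis had the highest shares together with histones and splicing. Of 87 cytosolic ribosomal protein genes, 30 had a 3-library region (34.5%, 25.3 to 44.9), 12 a 4-library region and 31 an NSC-only region. RPL41 had −log10 q of 15.1 in ESC2, 26.6 in NSC1 and 15.1 in NSC2, RPL23A had 14.7, 28.2 and 14.6, and RPL18 had 8.08, 25.4 and 26.1. RPL36AL, with 7.39, 22.5 and 16.6, shared its region with MGAT2. The list was above all coding genes in each of the 3 classes, with a 4-library share of 13.8% (5.81% of all) and an NSC-only share of 35.6% (17.1% of all).

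Translation factors had 23 of 71 genes with a 3-library region (32.4%, 22.7 to 43.9). After EEF1A1 the strongest were EIF4A3, an RNA helicase of the exon junction complex (13.5 in ESC2, 27.8 in NSC1, 20.0 in NSC2), EIF4G2, an initiation scaffold (8.68, 36.2 and 22.9), and EIF3J, a subunit of initiation factor 3 (9.30, 30.1 and 16.6). The 23 include EEF1AKMT4, a methyltransferase, and EIF4EBP3, an inhibitor of initiation, whose names match the list's pattern. Aminoacyl-tRNA synthetases, which charge tRNAs, had 11 of 37 (29.7%, 17.5 to 45.8). Among them were NARS2 (16.5, 7.94 and 13.9), EPRS1 (10.4, 13.0 and 6.70) and SARS2, whose region also lay at MRPS12 (5.00, 13.8 and 11.4).

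Splicing factors had 30 of 93 (32.3%, 23.6 to 42.3). SRSF10, an SR protein, had −log10 q of 13.3 in ESC2, 31.3 in NSC1 and 31.2 in NSC2. LSM3, of the U6 particle, had 11.4, 38.3 and 27.6 in a region shared with the repair gene XPC. HNRNPA0 had 10.3, 16.2 and 20.6. Splicing and translation genes were also above all coding genes in the 4-library class, where 16.1% of splicing factors, 11.3% of translation factors and 18.9% of synthetases had a region against 5.81% of all. Their shares are thus not particular to the 3-library regions. The splicing genes had low ESC2 percentiles (median 55.9) beside high NSC ones (median 84.0), whereas the median over all gene-end regions was 66.8 and 76.9. Mitochondrial ribosomal protein genes had a like pair of medians (59.5 and 81.0). The ESC2 median was also 56.1 for cytosolic ribosomal protein and for respiratory chain genes, with NSC medians of 68.1 and 62.3.

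Replication-dependent histone genes, which are transcribed in S phase, had 24 of 69 (34.8%, 24.6 to 46.6), but these 24 genes shared 14 regions. The region of H3C1 and H4C1 had 9.88 in ESC2, 27.3 in NSC1 and 11.98 in NSC2, and that of H2AC25 and H2BC26 had 12.7, 20.5 and 8.67. Histone copies resemble each other closely, and a read may fit more than one of them. Another 18 of 73 genes of replication and the cell cycle (24.7%, 16.2 to 35.6) had a region. They included CDK4 (17.2, 16.0 and 21.9), the spindle checkpoint gene MAD2L1 (9.02, 19.0 and 15.4) and POLA1, a subunit of the primase complex (10.9, 11.2 and 12.1). CHEK2 was counted through a region that lay within its neighbour HSCB. In the 4-library class the shares were 8.70% for histones and 10.96% for replication and cell cycle genes, against 5.81% of all coding genes.

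Genes of mitochondria and protein turnover followed. Respiratory chain and ATP synthase genes had 18 of 78 (23.1%, 15.1 to 33.6), led by NDUFA2 (12.8 in ESC2, 20.6 in NSC1, 16.6 in NSC2) and COX5B (9.09, 19.0 and 9.66). Mitochondrial ribosomal protein genes had 15 of 77 (19.5%, 12.2 to 29.7), led by MRPL57 (17.1, 20.8 and 27.5), which shared its region with the spindle gene SKA3. Proteasome genes had 11 of 48 (22.9%, 13.3 to 36.5), led by the assembly chaperone PSMG1 (6.56, 37.4 and 20.6) and PSMC4 (10.3, 9.98 and 18.6). In the 4-library class these 3 lists had 12.8%, 10.4% and 14.6%, again above 5.81%. The PSMB3 region lay 200 bp from an ESC1 peak and at an end of a tRNA gene.

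Among chromatin genes the shares ranged from above to about that of all coding genes. Polycomb and histone methylation genes had 12 of 58 (20.7%, 12.3 to 32.8), such as ASH2L, a core subunit of H3K4 methyltransferases (7.08 in ESC2, 41.2 in NSC1, 32.3 in NSC2), and the demethylase KDM4B (7.73, 21.4 and 32.0). KMT2E was counted through a region 917 bp from the gene and 285 bp from an ESC1 peak. BAF, PBAF and ncBAF subunits had 3 of 31 (9.68%, 3.35 to 24.9), namely SMARCD1 (11.3, 9.37 and 10.8), SMARCD2 (3.51, 14.6 and 15.2) and BICRAL (7.83, 7.53 and 6.91), the last shared with TBCC. DPF2 itself was not among them, and its end had an NSC-only region (7.14 in NSC1 and 6.61 in NSC2). NSC-only regions lay at 11 of the 31 subunit genes (35.5%), against 17.1% of all coding genes. The NSC-only share was 19.0% for Polycomb and histone methylation genes and 16.3% for ZNF genes. In the 4-library class the shares were 12.9% for the subunit genes (4 genes), 8.62% for Polycomb and histone methylation genes and 4.52% for ZNF genes. The share of all coding genes there was 5.81%. C2H2 zinc finger genes named ZNF had 87 of 509 (17.1%, 14.1 to 20.6), led by ZNF584 (11.7, 20.8 and 20.9) and ZNF292 (13.7, 16.4 and 19.8).

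Several lists of lineage and cell type genes had no member in the set. No 3-library region lay at an end of any of 39 HOX genes, 42 spinal cord domain factors, 18 glial, 28 mesoderm and endoderm, 22 blood, 53 clustered protocadherin or 390 olfactory receptor genes. The upper 95% limits were 8.97% for HOX genes, 8.38% for spinal cord domain factors, 6.76% for protocadherins and 0.975% for olfactory receptors, which lie below 11.9%. Those for glial, mesoderm and endoderm, and blood genes were 17.6%, 12.1% and 14.9%, and so include it. NSC-only regions lay at 9 of the HOX genes (23.1%), 4 of the spinal cord domain factors (9.52%) and 23 of the protocadherins (43.4%), where 17.1% of all coding genes had one. The number of regions behind these counts is not given. Neighbours in a gene cluster can share a region, so neither these counts nor the limits above are tests. The spinal cord domain factors also had 2 genes with a 4-library region (4.76%), near the 5.81% of all coding genes.

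Of 31 pluripotency genes, 1 had a 3-library region (3.23%, 0.572 to 16.2), and the interval includes 11.9%. It was JARID2, a partner of PRC2, with a weak ESC2 peak of 1.88 (percentile 10.5) beside 17.6 in NSC1 and 11.8 in NSC2. Of 32 neural progenitor regulators, 2 had one (6.25%, 1.73 to 20.1), with 11.9% again inside the interval. HES1, an effector of Notch, had 6.00 in ESC2, 15.5 in NSC1 and 20.0 in NSC2. NFIA had 4.07, 2.97 and 2.33, and both genes also had an NSC-only region. NSC-only regions lay at 13 of the 32 regulators (40.6%) and 2 of the 31 pluripotency genes (6.45%), against 17.1% of all coding genes. At the pluripotency genes POU5F1 and NANOG and the neural gene PAX6 no region of any kind lay at an end, and SOX2 had a 4-library region.

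The remaining marker lists each gave a few genes. Neuronal genes had 3 of 25 (12%, 4.17 to 29.96), at the level of all coding genes, namely the synaptic genes SYT1 (8.66, 5.57 and 6.63) and SNAP25 (2.80, 5.07 and 5.90) and the growth cone gene GAP43 (3.39, 6.87 and 3.91). Fibroblast genes had 2 of 18 (11.1%, 3.10 to 32.8), also at that level, namely FBN1 (3.78, 4.45 and 5.08) and FN1 (4.91, 3.69 and 3.22). The NSC values of these 5 were below the NSC1 median of 11.2 and the NSC2 median of 8.98 at gene ends. ERBB3, the only one of 16 neural crest genes (6.25%, 1.11 to 28.3), was reached by a region at PA2G4. HES7, the only one of 17 axial genes (5.88%, 1.05 to 26.98), was reached by a region 296 bp from an ESC1 peak and at the ends of 4 tRNA genes.

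For 3 signalling pathways the intervals were wide and included 11.9%. Notch genes had 5 of 30 (16.7%, 7.34 to 33.6), among them the ligand JAG1 (11.6 in ESC2, 13.7 in NSC1, 17.4 in NSC2) and the protease ADAM10 (5.05, 19.9 and 7.82). WNT genes had 4 of 42 (9.52%, 3.77 to 22.1), among them the receptors FZD2 (12.8, 18.2 and 11.6) and FZD1 (6.12, 14.4 and 7.84). Hedgehog genes had 3 of 15 (20.0%, 7.05 to 45.2), the inhibitor SUFU (21.7, 14.9 and 27.7), whose region lay 654 bp from an ESC1 peak, and the co-receptors GAS1 (4.32, 22.5 and 24.9) and CDON (10.2, 6.51 and 10.6). NSC-only regions lay at 38.1% of the WNT, 26.7% of the Notch and 20.0% of the Hedgehog genes, against 17.1% of all coding genes.

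Noncoding genes had smaller shares than the 11.9% of coding genes, given here without intervals. Long noncoding RNAs had a 3-library region at 610 of 18177 genes (3.36%), many of them beside a coding gene, since 129 of their 585 regions were away from coding gene ends. Genes of tRNAs had one at 36 of 443 (8.13%), and a 4-library region at 124 (28.0%). Transfer RNA genes thus had a peak in all 4 libraries more often than they had the 3-library pattern. The strongest away from coding ends were TRM-CAT6-1 (8.72 in ESC2, 25.3 in NSC1, 20.6 in NSC2) and TRN-GTT2-3 (10.1, 13.6 and 10.0).

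Spliceosomal and other snRNA genes had a 3-library region at 12 of 154 (7.79%) and a 4-library region at 15 (9.74%). Among the 12 were the U5 genes RNU5B-1 (6.44 in ESC2, 18.1 in NSC1, 14.7 in NSC2), RNU5D-1 (6.78, 17.6 and 11.9) and RNU5A-1 (5.44, 8.07 and 9.01). The U1 variant gene RNVU1-6 had 15.5 in ESC2 against 4.94 and 6.70 in NSC. In all, 741 regions lay away from coding gene ends, and 165 of these were at an end of a noncoding gene or pseudogene.

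The regions were spread over chromosomes 1 to 22 and X. Chromosome 19 had 217, 15.3% of its regions, and chromosome 18 had 30, 2.56% of its regions. Per 100 coding genes the counts were nearer, with 14.96 on chromosome 19 and 11.1 on chromosome 18, and a range over all chromosomes of 8.25 (X) to 16.7 (6). On 20 stretches, 4 or more 3-library regions followed each other with gaps of up to 50 kb, 88 regions in all. The longest runs had 6 regions. One lay in the histone cluster of chromosome 6 (26157019 to 26224469) with 10 histone genes, among them H1-4, H4C4 and H4C5. The other lay on chromosome 11 (62553226 to 62613336) at EEF1G, EML3, MTA2, ROM1 and TUT1.

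Promoters of genes with a 3-library region at the 5′ end were rich in CpG. RefSeq promoter windows of 300 bases, from 250 before to 50 after the start, were matched for 1983 genes. These genes had a region within 1 kb of their outermost 5′ end, and the window itself need not lie inside the region. Their median ratio of observed to expected CpG was 0.850, against 0.763 over all 15811 promoters and 0.503 over 8005 promoters with no peak of any library within 1 kb. It was 0.823 at the 4-library and 0.881 at the NSC-only promoters. Median GC content was 63.7%, 61.7% and 68.3% in the 3-library, 4-library and NSC-only promoters. On GC the 3-library promoters thus stood between the other classes.

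Motif shares placed them between the other classes for some letters and not for others. The 10 motifs were searched on both strands, and no motif contains another. The NF-Y letters CCAAT were in 47.5% (45.3 to 49.7) of the 3-library promoters, 55.2% (52.1 to 58.3) of the 4-library promoters, 37.0% (35.2 to 38.8) of the NSC-only promoters and 36.3% of all. The NRF1 letters GCGCNTGCG were in 18.6% (16.9 to 20.3), 13.6% (11.6 to 15.9), 18.4% (16.9 to 19.9) and 10.97%. For the ETS letters CCGGAAG the shares were 23.2%, 20.3%, 20.7% and 14.2%. NF-Y letters thus followed the presence of ESC peaks, while NRF1 letters were less frequent in the 4-library class than in the other two.

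The YY1 letters AAGATGGC were in 7.36% of the 3-library promoters, 8.08% of the 4-library, 5.35% of the NSC-only and 3.91% of all promoters. The CG palindrome CTCGCGAG, present in NOP14 and SRSF10 above, was in 3.43% (2.71 to 4.32), against 4.97% of 4-library, 2.37% of NSC-only and 1.53% of all promoters. The ZNF143 letters ACTACAATT were in 1.06%, 1.66%, 0.377% and 0.462% of these 4 sets in the same order. For the CRE letters TGACGTCA the shares were 3.68%, 3.83%, 3.88% and 2.59%, and for the GC box GGGCGG they were 70.7%, 70.7%, 75.6% and 58.5%. The E-box CACGTG was in 9.83%, 10.6%, 10.2% and 8.87%, and the TATA letters TATAAA in 4.64%, 4.77%, 5.61% and 9.64%. For the CRE, E-box and TATA letters the 3 classes with peaks were thus near each other, and the 3-library promoters did not stand apart. The GC box was less frequent in the 3-library promoters (68.6 to 72.6) than in the NSC-only promoters (74.0 to 77.2). Its share was level with that of the 4-library promoters (67.7 to 73.5). A match is a run of letters in the reference and not a measured binding site, and the shares were not corrected for base composition.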

How the data were processed

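The 4 peak lists were made by the authors, 1 per library, with MACS2 2.1.0.20150420 and no control library, per the file headers (q threshold 0.05, shift −100 bp, extension 200 bp, all duplicates of the input kept). The submitters' processing notes name FastQC, Trimmomatic, BWA 0.7.12 and the build hg38. The authors deposited, peak by peak, the pileup as a signal value, −log10 p and −log10 q values, and the fold enrichment, a ratio to the local background of that library. These were used only within a list. With no control and no counts, a missing peak says only that a site did not pass the threshold.

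Here, peaks were merged into regions with Python 3.11.15 and pandas 2.3.3, after a test on simulated data, and placed on RefSeq GRCh38.p14 gene and promoter tables. Exons, introns and peak sequences were not used here. Percentiles are ranks of −log10 q within a list. The members, the gene lists and the rules were chosen with earlier results of these data known. Named genes were the strongest regions by mean percentile (12 at gene ends, 6 inside, 6 outside), the 5 highest in ESC2, up to 4 genes per list, and marker genes. ZBTB2, MRPS28, DOCK4, RRM2B and ZSWIM6, chosen after the values were seen, fell outside this rule. Some items that the rule names are not reported here. Alternatives were a stricter threshold, equal list lengths, other overlaps and windows, and leaving out each library.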

Additional observations from a re-analysis of the deposited data

How the results depend on the processing

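The number of regions depended on the lists. At −log10 q of at least 5 there were 1644 regions, 78.4% of them at gene ends. With each list cut to its strongest 4204 peaks there were 413, with 82.8% at gene ends and 453 genes. The share at gene ends was 75.5% with a 2.5-kb window and 62.8% at 5′ ends alone. Leaving out 1 library gave 2896 to 16310 regions, 30.0% to 69.3% of them at gene ends, and 2467 to 5654 genes. The extremes of 16310 regions, 30.0% and 5654 genes came without ESC2, whose removal leaves the regions of both NSC libraries that ESC1 lacked, and without ESC1 there were 4113 regions. An overlap of 100 bp gave 2596 regions and 2328 genes. Asking for no ESC1 peak within 1 kb gave 2623 and 2338, and leaving out chromosome X gave 2589 and 2321. The gene-end shares under these settings were 72.2%, 72.2% and 72.3%, inside the interval of 70.4 to 73.8. The counts have no interval.

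The gene list shares were recomputed under settings chosen after seeing the data. At −log10 q of at least 5, where 8.28% of all coding genes had a region, the shares were 17.2% for ribosomal proteins, 26.8% for translation factors, 19.4% for splicing factors and 18.8% for histones. They were 24.3% for aminoacyl-tRNA synthetases, 23.3% for replication and cell cycle genes and 9.43% for ZNF genes. With lists of equal length, where 2.27% of all coding genes had one, the same 7 shares were 4.60%, 9.86%, 5.38%, 2.90%, 0%, 4.11% and 1.77%. They rest on only 4, 7, 5, 2, 0, 3 and 9 genes and are given without intervals. At this length the synthetase and ZNF shares were below that of all coding genes, and the histone share was close to it. No paired analysis was possible because the result comes from the presence of peaks and from no test over samples.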
